A study of Arabidopsis thaliana with 12 samples.

Results

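The pericentromeric stretches of *Arabidopsis* chromosomes 1 and 5 were followed here through every listed gene, pseudogene and non-coding RNA that lies in them. Members were taken by locus number alone, from AT1G33000 to AT1G43999 and from AT5G27000 to AT5G36999, with 6 loci set apart and isoform suffixes ignored. This gave 2188 rows of the 34133 in the deposited table, 964 on chromosome 1 and 1224 on chromosome 5. The rows stand for 2044 loci, of which 144 are listed both under the locus and under its first isoform. In the TAIR10.1 annotation the members span positions 11957968 to 16705876 of chromosome 1 and 9497939 to 14616135 of chromosome 5. No measured value entered these ranges of locus numbers, though members were chosen with earlier results of these data known. The 6 loci set apart are not described here.

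The study sequenced poly-A RNA of 10-day-old Columbia seedlings grown on MS medium. The 4 genotypes were *brat1* (the T-DNA allele *brat1-1*), *nrpe1* (*nrpe1-11*), the double mutant *brat1nrpe1* and the wild type, with 3 replicates each and 12 libraries in all. Nothing states whether replicates were separate plantings, so the p-values measure the spread between these libraries. Whole seedlings mix many cell types, and fewer expressing cells cannot be told apart from less RNA per cell. Values are FPKM, fragments scaled by transcript length and by the mapped fragments of the library.

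Pericentromeres flank the centromere with repeats, transposable elements (TEs) and few active genes, and they carry dense DNA methylation and other marks of heterochromatin. RNA-directed DNA methylation (RdDM) keeps many TEs and their neighbours silent. NRPE1 is the largest subunit of RNA polymerase V, whose transcripts guide the methylation machinery to its targets. BRAT1 is a nuclear protein with a bromodomain, which binds acetylated histones, and an AAA-type ATPase domain, and the study examined it as a factor that keeps methylated loci from being silenced.

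The label of the regions was borne out by the annotation. Among the members, 62.8% were annotated as pseudogenes, a class that includes TE genes, against 12.6% of all other rows. Protein-coding genes made up 34.5% of the members and 81.2% of the other rows. For 35 members no entry of the annotation was matched.

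Each mutated gene was lower in its own mutants. *BRAT1* had 2.96 to 3.44 FPKM in *brat1* and 2.67 to 3.11 FPKM in *brat1nrpe1*, against 11 to 11.4 FPKM in the wild type. *NRPE1* had 1.29 to 1.42 FPKM in *nrpe1* and 1.02 to 1.10 FPKM in *brat1nrpe1*, against 4.14 to 5.01 FPKM in the wild type. From the step between low values, the replicate 1 libraries were the deepest, with 0.895 to 1 of the depth of the first wild-type library, and the others had 0.351 to 0.48 of it. Replicate 1 of each genotype also stood apart from replicates 2 and 3. The 3 marker genes of green tissue summed to 20200 to 26900 FPKM and the 3 of roots to 39.6 to 46.9 FPKM in all libraries, and the 3 of dry seeds summed to at most 3.99 FPKM. The 3 floral markers stayed low but their sum differed by genotype, with 1.03 to 1.27 FPKM in *brat1*, 0.33 to 0.55 FPKM in *nrpe1*, 0.796 to 1.56 FPKM in *brat1nrpe1* and 0.278 to 0.385 FPKM in the wild type. This lay mainly in *AP3*, with 0.514 to 0.848, 0.129 to 0.215, 0.381 to 1.12 and 0 to 0.174 FPKM in the same order. *AG* overlapped in all genotypes, and *AP1* overlapped between *brat1* and the wild type and between *brat1nrpe1* and *nrpe1*.

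The stretches of DNA next to the members on which the results turn are shown first, because cytosine methylation is the mark that RdDM places. RdDM is not confined to CG, where the enzyme MET1 maintains methylation, and the study saw loss at CG, CHG and CHH sites (H is A, T or C) at *nrpe1* targets. The CG counts therefore do not mark the sites at which NRPE1 acts. Capitals mark each CG, which reads the same on both strands. The sequences come from the RefSeq TAIR10.1 genome and run 5′ to 3′ on the strand of the gene. The first is the 250 bases before the annotated start of AT5G27845, a TE gene on the plus strand (chr5:9868098-9868347), which had the largest fitted log2 difference in *nrpe1*.
AT5G27845: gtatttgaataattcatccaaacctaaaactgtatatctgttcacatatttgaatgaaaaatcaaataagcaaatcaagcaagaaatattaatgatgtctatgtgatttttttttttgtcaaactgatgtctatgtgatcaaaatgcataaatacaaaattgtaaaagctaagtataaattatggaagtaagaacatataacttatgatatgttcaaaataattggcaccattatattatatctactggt
The second, on the plus strand, is the whole gap of 220 bases between the divergent genes AT5G35480 and *MRU1* (chr5:13689597-13689816), which rose together.
AT5G35480-MRU1: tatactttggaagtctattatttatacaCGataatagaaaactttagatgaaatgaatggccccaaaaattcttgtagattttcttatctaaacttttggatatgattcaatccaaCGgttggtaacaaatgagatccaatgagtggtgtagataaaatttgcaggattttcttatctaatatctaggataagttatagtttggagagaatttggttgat
The third is the 250 bases before *PUM9* on the minus strand (chr1:13229932-13230181), which codes for a Pumilio RNA-binding protein and rose in *nrpe1*.
PUM9: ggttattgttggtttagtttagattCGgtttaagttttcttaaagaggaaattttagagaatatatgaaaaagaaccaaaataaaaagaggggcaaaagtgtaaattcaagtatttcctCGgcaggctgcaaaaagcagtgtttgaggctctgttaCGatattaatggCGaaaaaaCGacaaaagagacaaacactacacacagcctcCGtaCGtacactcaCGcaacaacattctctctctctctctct
The last is the 250 bases before AT5G34790 on the plus strand (chr5:12965830-12966079), the first of 4 neighbouring pseudogenes that fell in *brat1*.
AT5G34790: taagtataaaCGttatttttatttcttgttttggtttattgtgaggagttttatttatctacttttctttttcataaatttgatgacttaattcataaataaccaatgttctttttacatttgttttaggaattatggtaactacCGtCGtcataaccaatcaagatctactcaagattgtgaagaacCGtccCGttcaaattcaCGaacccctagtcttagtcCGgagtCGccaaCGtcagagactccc
The window of AT5G27845 held no CG, as did 3.65% of the 37897 windows of that length before all annotated genes. The gap of the divergent pair held 2, and 27.0% of windows of its length held no more. The windows of *PUM9* and AT5G34790 held 8 and 9, counts reached by 23.7% and 17.6% of all windows. The models of AT5G27845 and AT5G34790 are marked as partial, so their starts need not be where transcription begins.

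Most members were silent in seedlings of every genotype. In all 12 libraries 588 members of chromosome 1 (61.0%) and 784 of chromosome 5 (64.1%) were at 0, against 20.2% of the other rows. A member was called on in a genotype when it had at least 0.5 FPKM in all 3 libraries and off when it was below that in all 3. On chromosome 1, 184 members were on in *brat1*, 190 in *nrpe1*, 187 in *brat1nrpe1* and 187 in the wild type, which is 19.1% to 19.7% of them. On chromosome 5, 190 were on in *brat1*, 197 in *nrpe1*, 194 in *brat1nrpe1* and 192 in the wild type, or 15.5% to 16.1%. Over the other rows listed, 60.0% to 60.4% were on. The genotypes therefore differed by at most 6 members on chromosome 1 and 7 on chromosome 5.

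Single libraries of 1 genotype differed by about as much or more. In *nrpe1* the single libraries had 204, 194 and 197 members at or above 0.5 FPKM on chromosome 1, against 197, 193 and 191 in the wild type. On chromosome 5 they had 222, 209 and 212 in *nrpe1*, against 211, 203 and 202 in the wild type. The first library, the deepest, was highest in each genotype. Within each replicate number *nrpe1* was above the wild type on both chromosomes.

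**Figure D1:**
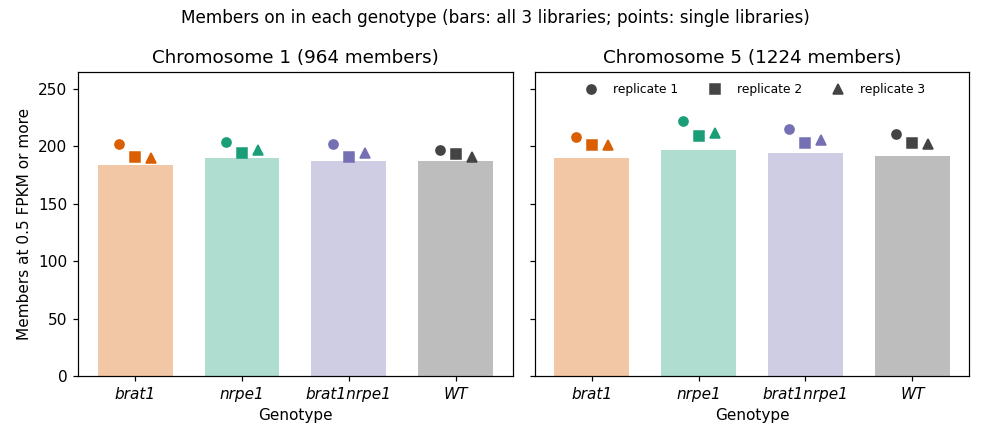
Number of members with at least 0.5 FPKM (y axis) by genotype (x axis) on each chromosome. Bars count members at that level in all 3 libraries and points count them in single libraries (circle, square and triangle for replicates 1, 2 and 3); the bars stand at 184 to 190 on chromosome 1 and 190 to 197 on chromosome 5, and the point of replicate 1 is the highest in each genotype.

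The classes of locus differed far more than the genotypes did. Among protein-coding members 352 of 755 (46.6%) were on in the wild type, and among pseudogenes 19 of 1374 (1.38%). For the other rows these shares were 72.1% and 4.19%. Protein-coding members that were on were not weakly expressed, with a median of 13.7 FPKM in the wild type, against 13.1 FPKM for protein-coding genes elsewhere. Among pseudogenes of chromosome 5, 10 were on in *brat1*, 16 in *nrpe1*, 13 in *brat1nrpe1* and 12 in the wild type. On chromosome 1 the pseudogenes on numbered 6 in *brat1*, 6 in *nrpe1*, 6 in *brat1nrpe1* and 7 in the wild type. Across all members, 363 were on in all 4 genotypes and 1722 were off in all 4, which left 103 that were mixed or changed.

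Members on thinned out towards the middle of both regions. In bins of 0.5 Mb from the first member of chromosome 1, 47.4% of members were on in the wild type in the first bin and none of 89 in the bins from 2.5 to 3.5 Mb, where 91.1% to 95.5% were pseudogenes. On chromosome 5 the share was 48.4% in the first bin and 1.75% to 2.33% from 1.5 to 3.0 Mb, where 91.2% to 93.8% were pseudogenes. The members past the threshold described below lay outside those stretches, where few could be tested. None lay in the bins from 2.5 to 4.0 Mb on chromosome 1 or from 1.5 to 3.0 Mb on chromosome 5, which hold 197 and 329 members, of which 6 and 8 were high enough to be tested. At most 0.521% of all rows tested passed in 1 direction of a comparison, so this absence says nothing about position.

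**Figure D2:**
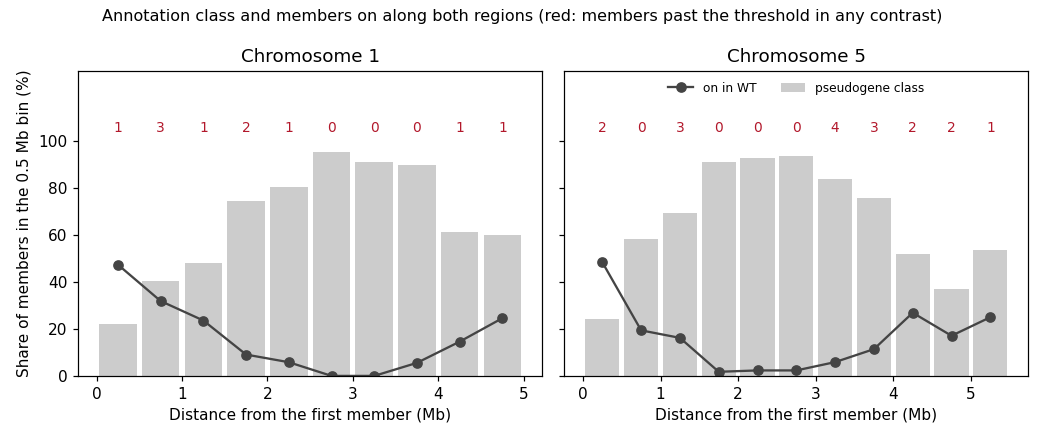
Share of members (y axis, %) annotated as pseudogenes (grey bars) and on in the wild type (points) in bins of 0.5 Mb, by distance from the first member of each chromosome (x axis, Mb). The red numbers count members past the threshold in any contrast; the points fall to 0.0% on chromosome 1 and 1.75% on chromosome 5 where the bars are above 90%.

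The most abundant members were genes of chloroplast enzymes and ribosomal proteins and did not pass the threshold in any comparison. On chromosome 1 they were *GAPB*, a subunit of the chloroplast glyceraldehyde-3-phosphate dehydrogenase of the Calvin cycle, and the ribosomal protein genes *RP1* and *RPL21C*. *GAPB* had 746, 1033 and 1019 FPKM in *brat1*, 672, 1075 and 1063 FPKM in *nrpe1*, 698, 1066 and 1057 FPKM in *brat1nrpe1* and 780.2, 1063 and 1048 FPKM in the wild type. The libraries of the genotypes overlap, and replicate 1 is the lowest in each. On chromosome 5 they were *GS2*, the glutamine synthetase of chloroplasts, with 821 to 1219 FPKM over all libraries, and the ribosomal protein genes AT5G27850 and AT5G28060. AT5G27850 was higher in *nrpe1* than in the wild type within each replicate number, as given below.

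Responses were tested with limma on log2(FPKM + 0.1) over the 22645 rows with a mean of at least 0.1 FPKM, which include 480 members, 229 of chromosome 1 and 251 of chromosome 5. A member passed the threshold when its unadjusted limma P was below 0.01 and its log2 difference exceeded 1 in size, and the adjusted p is that of Benjamini and Hochberg over all 22645 rows. The other 1708 members were too low to be tested. A nearly silent row can pass this filter through 1 genotype alone, so the shares of members tested given below describe those members and not the regions. Over the 4 comparisons 27 members passed, 10 on chromosome 1 and 17 on chromosome 5, of which 14 were pseudogenes and 13 protein-coding genes. The comparisons share control libraries and are given side by side. The libraries of the compared groups did not overlap for 7.92% to 11.9% of the members tested and for 5.69% to 8.92% of all rows. Named members were picked partly by such a separation, so it is no added support where it is given below.

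**Figure D3:**
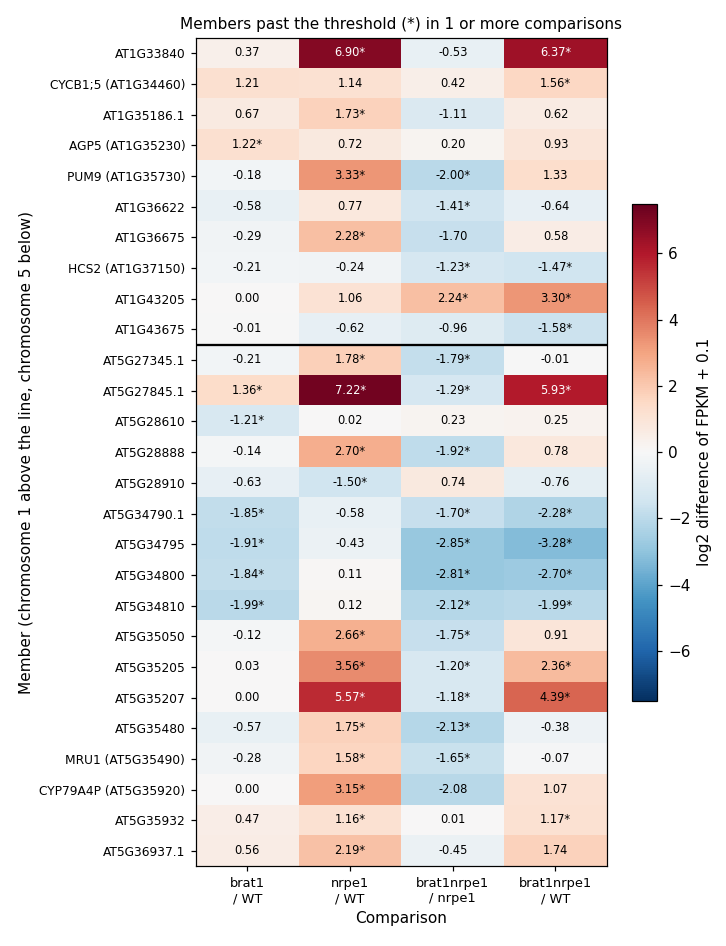
log2 difference of FPKM + 0.1 (colour and printed value) of the 27 members past the threshold (rows) in the 4 comparisons (columns), with an asterisk where the threshold was passed. Most values in the column of *nrpe1* over the wild type are positive, up to 7.22 for AT5G27845, and most in the column of *brat1nrpe1* over *nrpe1* are negative, down to -2.85 for AT5G34795, a value that depends on the pseudocount because that locus was at 0 in *brat1nrpe1*.

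Loss of *NRPE1* raised silent members. In *nrpe1* against the wild type 15 members rose, 4 on chromosome 1 and 11 on chromosome 5, and 1 fell. These are 3.12% of the members tested for the rise and 0.208% for the fall, where over all rows tested 0.477% rose and 0.185% fell. Members near 0 in the other genotypes could be tested only because they were high in *nrpe1*, which raises the share that rose. The adjusted p was under 0.05 for 9 of the 15, 2 on chromosome 1 and 7 on chromosome 5. Of the 15, 13 were under 0.5 FPKM in every *brat1* and wild-type library and 4 were at 0 in every wild-type library. They comprised 8 pseudogenes and 7 protein-coding genes.

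AT5G27845, a TE gene by the study's annotation, rose most. It had 20.5, 22.9 and 21.4 FPKM in *nrpe1*, against 0.0294, 0.0626 and 0.0461 FPKM in the wild type. The groups are far apart, and the fold of the mean FPKM was 468 (log2 difference 7.22, SE 0.314, adjusted p = 4.8e-06). The *brat1* libraries, with 0.0996, 0.379 and 0.443 FPKM, were all above the wild type too (log2 difference 1.36, SE 0.314, adjusted p = 0.46). In *brat1nrpe1* it had 8.72, 8.72 and 8.83 FPKM, below all *nrpe1* libraries (log2 difference -1.29, SE 0.314, adjusted p = 0.38, with the replicate block 0.031). Its deposited row is the first isoform.

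The next locus downstream on the same strand is AT5G27850, which codes for a ribosomal protein of the L18e/L15 superfamily and starts 1230 bases after the end of AT5G27845. It had 370.4, 726 and 703 FPKM in *brat1*, 561, 1361 and 1373 FPKM in *nrpe1*, 466, 1077 and 1032 FPKM in *brat1nrpe1* and 352, 644 and 659 FPKM in the wild type. In each replicate number *nrpe1* was highest and *brat1nrpe1* second. Replicate 1 was lower than the others in every genotype, and the *nrpe1* difference was short of the threshold (log2 difference 0.94, SE 0.471, adjusted p = 1.0). With replicate numbers as a block the adjusted p was 0.00022, still below a log2 difference of 1. The locus on the other side, AT5G27840, had 24.0 to 26.7 FPKM in *nrpe1*, against 23.0 to 24.3 FPKM in the wild type (adjusted p = 1.0).

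AT1G33840, which codes for a LURP-one-like protein, was the chromosome 1 member that rose most. It had 20.5, 13.8 and 12 FPKM in *nrpe1* and 11.3, 9.35 and 10.6 FPKM in *brat1nrpe1*, against 0, 0 and 0.104 FPKM in the wild type. Its log2 difference was 6.90 (SE 0.368, adjusted p = 1.5e-05) in *nrpe1* and 6.37 (SE 0.368, adjusted p = 5.7e-05) in *brat1nrpe1*. The *brat1* libraries had 0.103, 0 and 0.116 FPKM and overlapped the wild type. Between *brat1nrpe1* and *nrpe1* the groups did not overlap, but the log2 difference of -0.53 was short of the threshold.

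AT5G35205 and AT5G35207 are TE genes 137 bases apart on the minus strand of chromosome 5 (positions 13466904 to 13471592 and 13471730 to 13472482). AT5G35207 had 5.05, 3.71 and 5.36 FPKM in *nrpe1* and 2.67, 1.80 and 1.64 FPKM in *brat1nrpe1*, and was at 0 in all *brat1* and wild-type libraries. AT5G35205 had 1.40, 1.01 and 0.892 FPKM in *nrpe1* and 0.506, 0.365 and 0.382 FPKM in *brat1nrpe1*, and was at 0 in the wild type and at 0, 0 and 0.00561 FPKM in *brat1*. Both loci were seen almost only where NRPE1 was mutated, and AT5G35207 exceeded AT5G35205 by 3.61 to 6.0 times in the 6 libraries of these mutants. The fitted log2 differences of *nrpe1* against the wild type, which depend on the pseudocount when the wild type is at 0, had adjusted p = 4.8e-06 for AT5G35207 and 0.00014 for AT5G35205. The flanking genes, AT5G35200 and AT5G35210, had log2 differences of 0.07 (SE 0.116) and -0.01 (SE 0.0854) in this comparison.

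The protein-coding genes AT5G35480 and *MRU1* (AT5G35490), which start 220 bases apart on opposite strands, were already on in the wild type. *MRU1* is named for its rise in the methionine over-accumulation mutant *mto1*. AT5G35480 had 95.5, 89.1 and 77.8 FPKM in *nrpe1*, against 21.4, 30.3 and 26.9 FPKM in the wild type, a fold of 3.34 (log2 difference 1.75, SE 0.2, adjusted p = 0.0039). *MRU1* had 25.1, 21.3 and 24.9 FPKM in *nrpe1*, against 5.72, 9.96 and 8.45 FPKM in the wild type, a fold of 2.95 (log2 difference 1.58, SE 0.266, adjusted p = 0.046). The groups were well separated for both genes, and AT5G35480 stood at 2.03 to 4.19 times the FPKM of *MRU1* in all libraries.

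*PUM9* codes for an RNA-binding protein of the Pumilio family, whose members bind messenger RNAs. It had 1.77, 3.08 and 2.73 FPKM in *nrpe1*, against 0.0648, 0.231 and 0.203 FPKM in the wild type, a fold of 15.2 (log2 difference 3.33, SE 0.444, adjusted p = 0.011). All *nrpe1* libraries were above all others. The 3′ end of *PUM9* overlaps that of the annexin gene AT1G35720 on the opposite strand, and the counting is not stated to use strand. AT1G35720 itself had 238 to 422 FPKM in *nrpe1*, against 257 to 409 FPKM in the wild type (log2 difference -0.06, SE 0.334).

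The other members that rose in *nrpe1* were weak. AT5G28888, similar to terpenoid cyclases, had 0.533, 0.846 and 0.518 FPKM in *nrpe1*, against 0.0342, 0 and 0 FPKM in the wild type (adjusted p = 0.035). AT5G35050, a gene with the domain DUF1985, had 0.306, 1.17 and 0.796 FPKM in *nrpe1*, against 0, 0 and 0.0823 FPKM in the wild type (adjusted p = 0.05, below the limit before rounding). The TE gene AT5G27345 had 0.28, 0.404 and 0.357 FPKM in *nrpe1*, against 0.0328, 0.0622 and 0 FPKM in the wild type (adjusted p = 0.072). At these 3 loci all *nrpe1* libraries were above all wild-type libraries, a separation that named members were picked by.

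The glycine-rich protein gene AT1G36675 had 1.12, 0.298 and 0.507 FPKM in *nrpe1*, against 0.0401, 0 and 0.084 FPKM in the wild type (adjusted p = 0.33). AT1G35186, similar to a non-LTR retroelement protein, had 0.321, 0.356 and 0.207 FPKM, against 0.0617, 0 and 0 FPKM (adjusted p = 0.38), and without *nrpe1* replicate 2 its P was 0.0108. Calls of the 3 remaining members that rose depended on single libraries. *CYP79A4P*, a cytochrome P450 pseudogene annotated as protein-coding, had 1.33, 1.38 and 0.235 FPKM in *nrpe1* and was at 0 in the wild type (adjusted p = 0.55), and its P was up to 0.0199 without *nrpe1* replicate 1 or 2 or any 1 wild-type library. AT5G36937 (adjusted p = 0.55) lost its call without *nrpe1* replicate 2 or any 1 wild-type library, with a P of up to 0.0128, and AT5G35932 (adjusted p = 0.62) without any 1 of the 6 libraries compared, with a P of up to 0.0182. With the replicate block the P of AT5G35932 was 0.0101.

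The member that fell in *nrpe1* was AT5G28910, which codes for a protein annotated as an alpha-(1,6)-fucosyltransferase. It had 1.05, 0.699 and 0.574 FPKM in *nrpe1*, against 3.75, 1.61 and 2.03 FPKM in the wild type (log2 difference -1.50, SE 0.338, adjusted p = 0.24). With the replicate block the adjusted p was 0.0032. Its *brat1nrpe1* libraries had 1.5, 1.22 and 1.26 FPKM and lay above all *nrpe1* libraries.

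**Figure D4:**
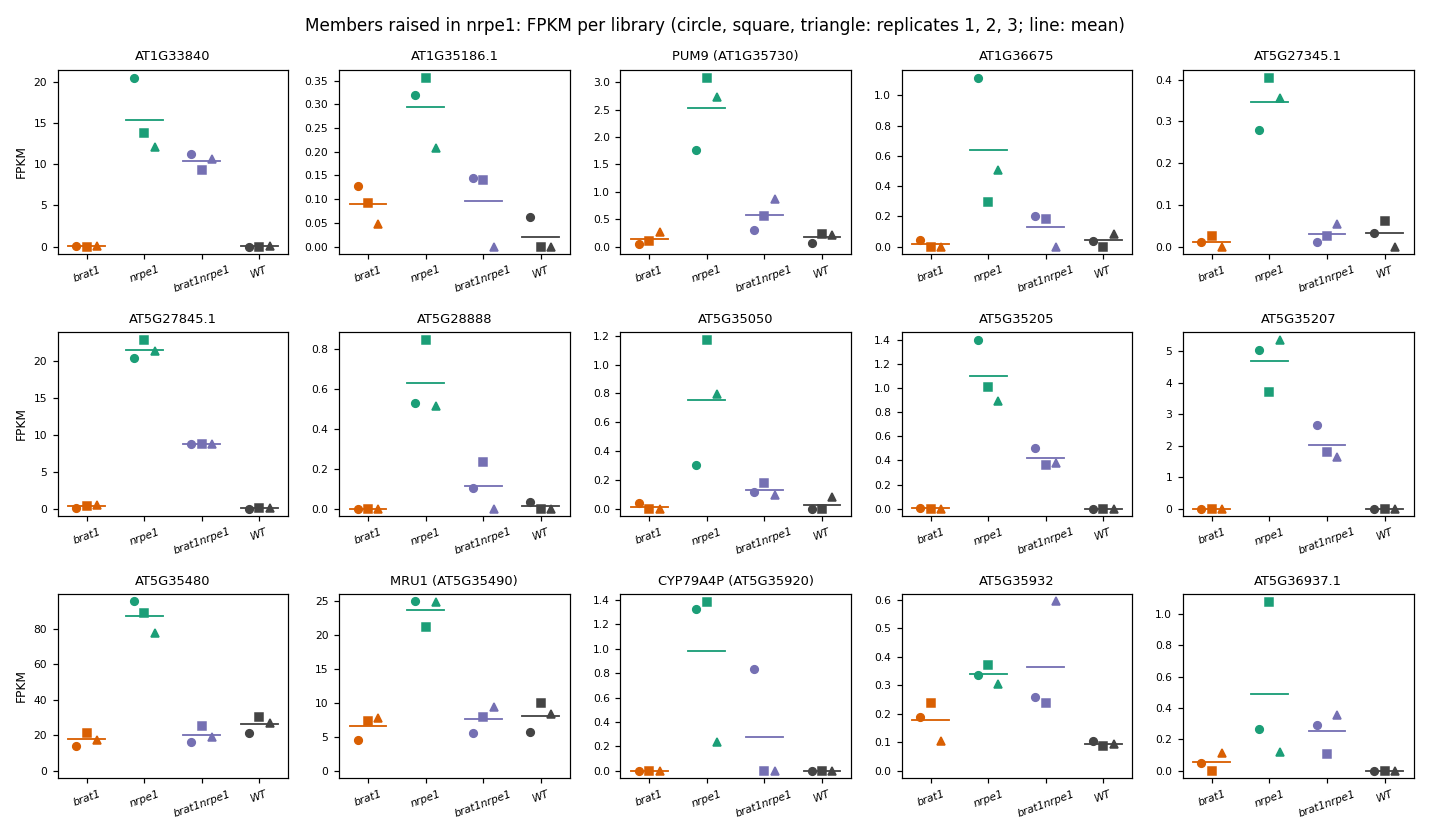
FPKM (y axis, a scale for each panel) of the 15 members that rose in *nrpe1*, by genotype (x axis), with a point for each library and a line at the mean of 3. In each panel the *nrpe1* points lie above all wild-type points, for example at 20.5 to 22.9 FPKM against at most 0.0626 FPKM for AT5G27845.

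Members that differed between *brat1nrpe1* and *nrpe1* were mostly lower in the double mutant. In *brat1nrpe1* against *nrpe1* 15 members fell, 3 on chromosome 1 and 12 on chromosome 5, and 1 rose. These are 3.12% and 0.208% of the members tested, where 0.349% of all rows fell and 0.159% rose. As for the rise in *nrpe1*, members near 0 in the other genotypes passed the filter mainly through *nrpe1*, which raises the share that fell. The adjusted p was under 0.05 for 3 of the 15 that fell, and with the replicate block for 12 of 18. The *nrpe1* libraries stand both here and in *nrpe1* against the wild type, so members are set side by side and no overlap is drawn from them. The floral marker sums given above, which differed mainly through *AP3*, were higher in all *brat1nrpe1* than in all *nrpe1* libraries, and their part in these results was not tested.

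AT5G35480 and *MRU1* fell to levels that overlapped the wild type. AT5G35480 had 16.4, 25.0 and 19.1 FPKM in *brat1nrpe1*, against 95.5, 89.1 and 77.8 FPKM in *nrpe1* (log2 difference -2.13, SE 0.2, adjusted p = 0.0028). *MRU1* had 5.59, 7.92 and 9.44 FPKM in *brat1nrpe1*, against 25.1, 21.3 and 24.9 FPKM in *nrpe1* (log2 difference -1.65, SE 0.266, adjusted p = 0.064, with the replicate block 0.0019). Both genes overlapped the wild type in *brat1nrpe1*, with log2 differences of -0.38 (SE 0.2) and -0.07 (SE 0.266) from it.

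Weaker members fell as well. AT5G27345 had 0.0111, 0.0247 and 0.0537 FPKM in *brat1nrpe1* (adjusted p = 0.1 against *nrpe1*, with the replicate block 0.04), a level at which it overlapped the wild type. AT5G28888 had 0.104, 0.233 and 0 FPKM (adjusted p = 0.29, with the block 0.046) and *PUM9* had 0.311, 0.55 and 0.876 FPKM (adjusted p = 0.28, with the block 0.0044). *PUM9* stayed above all wild-type libraries, which passed the threshold with the replicate block (adjusted p = 0.018) and not without it (adjusted p = 0.58). AT5G27845, AT5G35205 and AT5G35207 were at 40.6%, 38.0% and 43.3% of their *nrpe1* means, and all 3 falls were past the threshold. Their adjusted p was 0.38 for AT5G27845, 0.21 for AT5G35205 and 0.14 for AT5G35207, and with the replicate block 0.031, 0.056 and 0.03.

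AT5G35050 fell to 0.119, 0.179 and 0.0974 FPKM in *brat1nrpe1*, against the *nrpe1* values above (adjusted p = 0.45, with the replicate block 0.082). Its P was up to 0.0165 without *brat1nrpe1* replicate 1 or 3 or *nrpe1* replicate 2 or 3. AT1G36622, an uncharacterised protein-coding gene, had 0.291, 0.33 and 0.361 FPKM in *brat1nrpe1*, against 1.12, 1.08 and 0.918 FPKM in *nrpe1* (adjusted p = 0.27, with the block 0.038). Its wild-type libraries had 0.36, 1.06 and 0.454 FPKM and spanned both. AT1G36622 overlaps the opposite-strand locus AT1G36623 by annotation.

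*HCS2*, which codes for a predicted second holocarboxylase synthetase, the enzyme that attaches biotin to carboxylases, was lowest in the double mutant. It had 0.109, 0.244 and 0.133 FPKM in *brat1nrpe1*, against 0.39, 0.533 and 0.605 FPKM in *nrpe1* (adjusted p = 0.58) and 0.35, 0.928 and 0.676 FPKM in the wild type (adjusted p = 0.21). With the replicate block these adjusted p-values were 0.036 and 0.013. The *brat1* libraries, with 0.364, 0.539 and 0.686 FPKM, overlapped the wild type. Against *nrpe1* its P was up to 0.024 without *brat1nrpe1* replicate 1 or 3 or *nrpe1* replicate 2 or 3, and against the wild type 0.0101 without wild-type replicate 2.

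The only member that rose in *brat1nrpe1* against *nrpe1* was AT1G43205, an uncharacterised pseudogene of 414 bases. It had 0.581, 0.799 and 1.47 FPKM in *brat1nrpe1*, 0.128, 0 and 0.297 FPKM in *nrpe1*, and was at 0 in all *brat1* and wild-type libraries (adjusted p = 0.28 against *nrpe1*, adjusted p = 0.029 against the wild type). With the replicate block the adjusted p against *nrpe1* was 0.035. Its whole length has a match of at least 98% identity elsewhere in the genome, so with uniquely mapped reads its values are uncertain.

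A single mutation of BRAT1 changed few members. In *brat1* against the wild type 5 members fell, all on chromosome 5, and 2 rose, 1 on each chromosome. These are 1.04% and 0.417% of the members tested, where 0.19% of all rows fell and 0.194% rose. The adjusted p was under 0.05 for 1, and with the replicate block for 3. The floral marker sums given above, again mainly through *AP3*, were also higher in all *brat1* than in all wild-type libraries, and their part in these results was not tested.

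Of the members that fell in *brat1*, 4 form a row of pseudogenes on the plus strand of chromosome 5, AT5G34790, AT5G34795, AT5G34800 and AT5G34810, over 9359 bases (12966080 to 12975438). AT5G34790 and AT5G34800 are TE genes in the study's annotation. They have no locus listed between them and lie 264 to 1595 bases apart. All 4 fell again in *brat1nrpe1* against *nrpe1* and against the wild type, and none passed the threshold in *nrpe1* against the wild type.

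AT5G34800 had 0.0824, 0.118 and 0.122 FPKM in *brat1* and 0.0133, 0.0298 and 0 FPKM in *brat1nrpe1*. It had 0.66, 0.747 and 0.696 FPKM in *nrpe1* and 0.633, 0.601 and 0.688 FPKM in the wild type. Levels were thus low wherever BRAT1 was mutated, and *nrpe1* and the wild type overlapped (log2 difference 0.11, SE 0.215). The fall in *brat1* was to 0.168 of the wild-type mean (log2 difference -1.84, SE 0.215, adjusted p = 0.026), and that in *brat1nrpe1* against *nrpe1* had a log2 difference of -2.81 (SE 0.215, adjusted p = 0.0013).

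AT5G34795, a pseudogene related to DUF1985 proteins, had 0.0615, 0.354 and 0.137 FPKM in *brat1*, 0.68, 0.777 and 0.446 FPKM in *nrpe1* and 0.827, 0.845 and 0.947 FPKM in the wild type. It was at 0 in all *brat1nrpe1* libraries. The difference from the wild type was -1.91 on the log2 scale in *brat1* (SE 0.361, adjusted p = 0.26, with the replicate block 0.046). In *brat1nrpe1* against *nrpe1* the fitted difference, which depends on the pseudocount, had adjusted p = 0.019.

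AT5G34810 was at 0 in all *brat1* and *brat1nrpe1* libraries. It had 0.352, 0.262 and 0.401 FPKM in *nrpe1* and 0.105, 0.614 and 0.332 FPKM in the wild type (adjusted p = 0.33 for *brat1* against the wild type). AT5G34790 had 0.121, 0.0579 and 0.0299 FPKM in *brat1* and 0.013, 0 and 0.0634 FPKM in *brat1nrpe1*. It had 0.733, 0.0954 and 0.292 FPKM in *nrpe1*, a wide spread, and 0.503, 0.478 and 0.512 FPKM in the wild type. Its P in *brat1* was 0.00356 and rose to as much as 0.0148 without any 1 wild-type library or *brat1* replicate 2 or 3. Against *nrpe1* its P in *brat1nrpe1* was 0.00586 and up to 0.0217 without *brat1nrpe1* replicate 1 or 2 or *nrpe1* replicate 1 or 3. The loci on either side, AT5G34780 and AT5G34820, were at 0 in all libraries or too low to be tested.

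The fifth member that fell in *brat1* was AT5G28610, a gene annotated as similar to an ATP-dependent RNA helicase of the DRS1 kind. It had 0.266, 0.387 and 0.2 FPKM in *brat1*, against 1.11, 0.758 and 0.538 FPKM in the wild type (log2 difference -1.21, SE 0.276, adjusted p = 0.45). Without wild-type replicate 1 the log2 difference was -0.97. The *brat1nrpe1* libraries, with 0.774, 0.978 and 1.07 FPKM, overlapped both *nrpe1* and the wild type.

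*AGP5*, which codes for an arabinogalactan protein of the cell wall, rose in *brat1*. It had 3.55, 2.93 and 3.03 FPKM in *brat1*, against 1.41, 1.03 and 1.48 FPKM in the wild type, a fold of 2.42 (log2 difference 1.23, SE 0.246). Its adjusted p was 0.28 without and 0.013 with the replicate block. It had 2.88, 1.90 and 1.95 FPKM in *nrpe1* and 3.56, 2.42 and 1.91 FPKM in *brat1nrpe1*, so that all mutant libraries were above all wild-type libraries. The other member that rose in *brat1* was AT5G27845, described above.

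**Figure D5:**
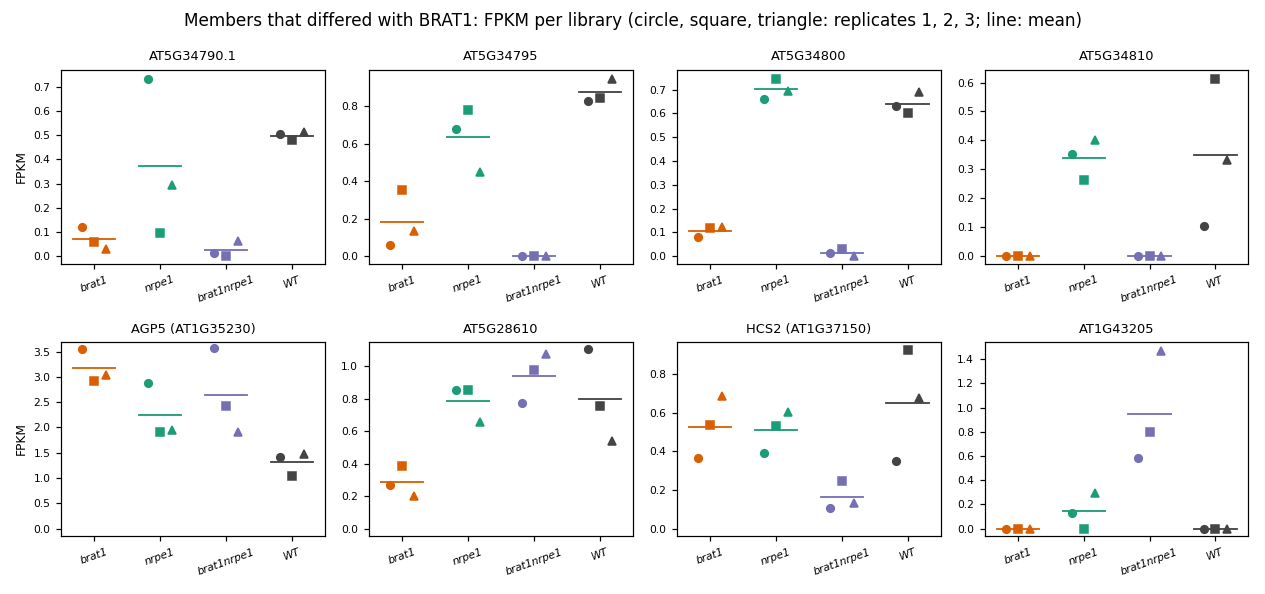
FPKM (y axis, a scale for each panel) of 8 members past the threshold in a comparison that differs in BRAT1, by genotype (x axis), with a point for each library and a line at the mean of 3. The 4 panels of the row AT5G34790 to AT5G34810 are low in *brat1* and *brat1nrpe1*, at no more than 0.354 FPKM, and the lowest mean of *HCS2* and the highest of AT1G43205 are those of *brat1nrpe1*.

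Against the wild type, 7 members rose in *brat1nrpe1*, 3 on chromosome 1 and 4 on chromosome 5, and 6 fell, 2 on chromosome 1 and 4 on chromosome 5. These are 1.46% and 1.25% of the members tested, where 0.521% of all rows rose and 0.318% fell. The adjusted p was under 0.05 for 7 of the 13, and with the replicate block for 13 of 15. The 7 that rose were AT1G33840, AT5G27845, AT5G35205, AT5G35207, AT5G35932, AT1G43205 and *CYCB1;5*, and the wild-type libraries are those of the other comparisons.

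The other members past the threshold in this comparison were AT1G43205 and *HCS2*, given above, *CYCB1;5* and AT1G43675. *CYCB1;5*, a B-type cyclin gene of the cell division cycle, had 1.30, 0.43 and 0.748 FPKM in *brat1nrpe1*, against 0.22, 0.326 and 0.0794 FPKM in the wild type (adjusted p = 0.47, with the replicate block 0.039). Its *brat1* libraries, with 0.818, 0.427 and 0.529 FPKM, were also above the wild type (adjusted p = 1.0, and past the threshold with the block at adjusted p = 0.2), and the locus overlaps an opposite-strand RNA gene. Its P in *brat1nrpe1* was up to 0.0385, and 8 of the 12 libraries were each needed for the call, namely wild-type replicates 1 and 3, *brat1nrpe1* replicates 1 and 3, *nrpe1* replicate 2 and all 3 of *brat1*. AT1G43675, similar to a non-LTR retroelement protein, had 0.987, 1.30 and 0.721 FPKM in *brat1nrpe1*, against 5.30, 2.14 and 2.67 FPKM in the wild type (adjusted p = 0.3), and its P was up to 0.0189 without wild-type replicate 1 or *brat1nrpe1* replicate 1 or 3. For AT5G35932 (adjusted p = 0.33) it was up to 0.0196 without any 1 wild-type library or *brat1nrpe1* replicate 3.

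The effect of *brat1* differed between the *nrpe1* background and the wild type, at the unadjusted threshold, for 8 members. It was more negative with *nrpe1* mutated for AT5G27845, AT5G27345, AT5G35205, AT5G35207, AT5G35480 and *MRU1*, and more positive for AT1G43205 and AT5G28610. These are 1.25% and 0.417% of the members tested, where 0.181% of all rows were past the threshold downwards and 0.102% upwards. AT5G35207 and AT1G43205 were at 0 in all *brat1* and wild-type libraries, so their difference only repeats that of *brat1nrpe1* against *nrpe1*. AT5G35205 and AT5G27345 had at most 0.0622 FPKM in the *brat1* and wild-type libraries, where a fall in *brat1* could hardly be seen. Leaving out single libraries in turn, the calls of AT5G27845 and AT5G35480 held in every fit and those of the other 6 were each lost in 4 to 10 fits. No adjusted p was under 0.05 in limma, where 4 and 13 members had an unadjusted P under 0.05 upwards and downwards. AT5G35480, for example, had a log2 difference of -2.13 (SE 0.2) between *brat1nrpe1* and *nrpe1* and of -0.57 (SE 0.2) between *brat1* and the wild type, and the difference of the 2 was -1.56 (SE 0.282, adjusted p = 0.46). With the replicate block its adjusted p was 0.022, AT5G27345 and AT5G35205 dropped out at a P of 0.0169 and 0.0137, and AT1G35186, *AGP5*, *PUM9* and AT5G28910 came in, with adjusted p-values of 0.49, 0.35, 0.23 and 0.21.

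Members that went from off to on, or the reverse, were fewer still. On and off as defined above, 2 members of chromosome 1 (AT1G33840, *PUM9*) and 4 of chromosome 5 (AT5G27845, AT5G28888, AT5G35205, AT5G35207) were on in *nrpe1* and off in the wild type, and none the reverse, where of the 31945 other rows 43 switched on and 16 off. In *brat1nrpe1* against *nrpe1* AT1G36622, AT5G28888 and AT5G34800 were off and AT1G43205 was on, and of the other rows 30 were off and 20 on. Of the 3 members off in *brat1* and on in the wild type, all were on chromosome 5 and past the threshold (AT5G28610, AT5G34795, AT5G34800), and of the other rows 16 switched off and 24 on in this comparison. In *brat1* against the wild type 2 members switched on without passing it, the integrase-type DNA-binding protein gene AT1G33760, with 0.584, 0.738 and 0.655 FPKM against 0.28, 0.407 and 0.392 FPKM (adjusted p = 1.0), and the mannose-binding lectin gene AT5G28520, with 0.804, 0.75 and 0.533 FPKM against 0.334, 0.179 and 0.218 FPKM (adjusted p = 1.0). In *brat1nrpe1* against the wild type AT1G33840, AT1G43205, AT5G27845 and AT5G35207 were on and AT5G34795 and AT5G34800 were off, and of the other rows 42 were on and 25 off.

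By class, 49 pseudogenes and 418 protein-coding genes were tested. In *nrpe1* against the wild type 8 of the 49 pseudogenes rose and none fell, with a median log2 difference of 0.12, and 7 of the 418 protein-coding genes rose and 1 fell, with a median of 0.02. In *brat1nrpe1* against *nrpe1* 9 pseudogenes fell and 1 rose, with a median of -0.18, and 6 protein-coding genes fell, with a median of -0.01. The median over all rows tested was 0.01 and 0.0 in these comparisons. Of the 1374 pseudogenes 14 were on in all 4 genotypes, and a pseudogene can pass the filter on low values through 1 genotype alone, so these counts describe the members tested and not the class. None of the 12 non-coding RNAs tested passed in any of the 4 comparisons, where at most 0.521% of all rows did in 1 direction, so this count is not a result about them.

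Gene families of the regions are given by their counts, and with 0.159% to 0.521% of all rows past the threshold in each direction of the 4 comparisons, the absence of calls among so few members says nothing about a family. Of 15 members with F-box products, which select proteins for degradation, or FBD or RNI-like products, 4 were on in the wild type. Of the 15, 5 were tested and none passed in any comparison. Among 9 cysteine-rich peptide genes of the defensin and self-incompatibility kinds, none was on in the wild type and neither of the 2 tested passed. Of 9 cytochrome P450 members none was on in the wild type, and *CYP79A4P* was the only 1 of 6 tested that passed. Of 22 zinc finger or zinc knuckle members 6 were on in the wild type and none of the 6 tested passed. Of 11 lectin or glycoside protein members 6 were on in the wild type and none of the 7 tested passed.

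The study's lists of changed genes, which were chosen on these same libraries and are no independent evidence, hold 6 members changed in *brat1*, 13 raised in *nrpe1* and 12 lowered in *brat1nrpe1* against *nrpe1*. Of those tested, 5 of 5, 9 of 12 and 10 of 11 were past the threshold in the same comparison. Listed members that were not past it include the TE gene AT5G35777, with 0.151, 0.624 and 0.704 FPKM in *brat1nrpe1* and 0.302, 2.39 and 2.26 FPKM in *nrpe1*, against 0.619, 0.831 and 0.957 FPKM in the wild type. With the replicate block it fell in *brat1nrpe1* against *nrpe1* (adjusted p = 0.1), and without the block its P was 0.0836. AT5G35926, with RNI-like and FBD-like domains, had 4.65, 1.18 and 1.57 FPKM in *nrpe1*, against 2.1, 0.684 and 0.849 FPKM in the wild type (adjusted p = 1.0), with replicate 1 highest in each. Below the filter, AT5G28715 had 0.122, 0.141 and 0.17 FPKM in *nrpe1*, against 0.0209, 0 and 0.0327 FPKM in the wild type, and AT5G35052 was above 0 in the wild type alone, with 0.106, 0.0799 and 0.118 FPKM.

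The study also mapped regions that gained DNA methylation in *brat1*, from other libraries, and assigned them to genes. Among the members 17 rows belong to such a gene, of which 9 were on in the wild type and 10 were tested. None of the 10 passed the threshold in any of the 4 comparisons, and their median log2 difference was -0.01 in *brat1*, against 0.00 over all rows. Since 0.19% of all rows fell and 0.194% rose in *brat1*, a count of 0 among 10 is no different from the background. The row AT5G34790 to AT5G34810 is not among these genes.

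Members past the threshold in the same comparison that are listed next to each other were the row of 4 pseudogenes and the pairs AT5G35205 and AT5G35207, and AT5G35480 and *MRU1*, all on chromosome 5. The other members past the threshold had no such neighbour. The 250 bases before the members that rose in *nrpe1* held 0 to 8 CG with a median of 3, those before the members that fell in *brat1* held 4 to 12 with a median of 9, and 4 of these 5 are the row of neighbours. Over all genes the windows held 0 to 29 CG, and the median was 5 over all genes and over all members, so the counts of both groups lie within the range of all genes. None of the responding members other than AT1G43205 had a stretch of 100 bases with a match of 98% identity elsewhere.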

How the data were processed

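RNA of 12 libraries, 3 for each genotype, was analysed from the FPKM values the authors deposited. Per the paper and the processing notes, the authors prepared poly-A libraries with a NEBNext Ultra kit, mapped reads to TAIR10 with TopHat2 (2.0.12 in the notes) with up to 2 mismatches, retained reads that mapped uniquely and ran Cufflinks 2.0.1 for FPKM. Uniquely mapped reads lower the values of near-identical copies, and loci listed with an isoform share reads between rows. FPKM carries no counts, so no count model or counting interval was used, and a listed 0 can be a failed estimate.

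Values of at most 1e-06 were taken as 0. The model was limma 3.58.1 in R 4.3.3 on log2(FPKM + 0.1) with 4 genotype means over all 12 libraries and a trend on mean expression. It gave two-sided P and Benjamini-Hochberg adjustment over 22645 rows. A run on simulated data had noise that was independent between libraries, so it cannot show how the model handles differences between replicate numbers. Exact permutation tests of 3 against 3 libraries cannot go below p = 0.1 and are not given. Replicate numbers come from the labels. The main model did not use them, so the counts, SEs and adjusted p-values given without the replicate block are unpaired. Only in the fits with the block were they taken to pair the libraries, since same-numbered deviations from the genotype means correlated at 0.593 to 0.84. Differently numbered ones correlated at -0.271 on average, which is no separate evidence, because deviations from a mean of 3 libraries sum to 0. That average does not show whether replicates 2 and 3 pair by number or only differ from replicate 1. The replicate number as a block is therefore given where it changes a call or takes a printed adjusted p under 0.05. Positions, classes and sequences are those of RefSeq TAIR10.1, which matched 2153 of the 2188 members, and copies were sought with BLAST 2.17.0. Tables were handled in Python 3.11.15 (pandas 2.3.3, numpy 2.4.6, scipy 1.17.1), and figures were drawn with matplotlib 3.10.9.

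Members and lists were chosen with earlier results of these data known. Named members are, for each comparison, chromosome and direction, up to 5 that passed the threshold with no overlap of libraries, taken by the size of the log2 difference, members of the study's lists of changed genes, members on in 1 genotype and off in the other, the 3 most abundant of each chromosome in the wild type, and neighbours of these that passed the threshold. Other neighbours are named for their place. Alternatives were pseudocounts of 1 and 0.01, no filter or a mean of at least 1 FPKM, the block, only the libraries compared, no trend, rescaling to the same 75th percentile, the adjusted p, replicates 2 and 3 averaged, and libraries left out, and for members on, limits of 0.1 and 1 FPKM, the mean, and 1 row for each locus.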

Additional observations from a re-analysis of the deposited data

Results flagged for a closer look

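The effect of *brat1* differed between the *nrpe1* background and the wild type for 8 members at the unadjusted threshold of limma, and no adjusted p was under 0.05. The difference of the log2 effects was -2.65 for AT5G27845, -1.58 for AT5G27345, -1.23 for AT5G35205, -1.18 for AT5G35207, -1.56 for AT5G35480 and -1.37 for *MRU1* (AT5G35490), where the effect was more negative with *nrpe1* mutated. It was 2.24 for AT1G43205, which was at 0 in all *brat1* and wild-type libraries, and 1.44 for AT5G28610, which fell in *brat1* (adjusted p = 0.45) and not in *brat1nrpe1* against *nrpe1* (log2 difference 0.23). AT5G35207 was also at 0 in all *brat1* and wild-type libraries. For AT1G43205 and AT5G35207 the value therefore only repeats that of *brat1nrpe1* against *nrpe1*. AT5G35205 and AT5G27345 had at most 0.0622 FPKM in the *brat1* and wild-type libraries, where a fall in *brat1* could hardly be seen. AT5G27845 and AT5G35480 kept their calls without any 1 library. With single libraries left out in turn, the calls of AT1G43205 and AT5G35205 were each lost without any 1 of 10 libraries (all of them but *nrpe1* replicate 3 and *brat1nrpe1* replicate 1), with a P of up to 0.0275 and 0.0227. AT5G27345 lost its call without replicate 1 or 3 of the wild type or replicate 1 or 2 of *brat1* or *brat1nrpe1* (P up to 0.0172), and in 3 more fits it fell below the filter. *MRU1* lost it without wild-type replicate 1, *brat1* replicate 2 or 3, *brat1nrpe1* replicate 1 or *nrpe1* replicate 1 or 3 (P up to 0.0137). AT5G35207 lost it without *brat1nrpe1* replicate 2 or 3 or *nrpe1* replicate 1 or 3 (P up to 0.0153), and AT5G28610 without *brat1* replicate 3, *brat1nrpe1* replicate 2 or 3 or *nrpe1* replicate 3 (P up to 0.0125).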

How the results depend on the processing

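None of the 60 calls turned its direction under any alternative, and 20 of the 52 calls of the 4 comparisons held in every fit that left libraries out. The counts of members past the threshold below are given in the order *brat1* against the wild type, *nrpe1* against the wild type, *brat1nrpe1* against *nrpe1*, *brat1nrpe1* against the wild type and the difference of the *brat1* effect between backgrounds, where the counts reported were 7, 16, 16, 13 and 8. With a pseudocount of 1, which shrinks the differences of low members, they were 0, 7, 4, 4 and 4. With a mean of at least 1 FPKM, which leaves fewer members to test, they were 2, 6, 4, 4 and 3, and with an adjusted p under 0.05 they were 1, 9, 3, 7 and 0. With replicates 2 and 3 averaged they were 4, 12, 9, 9 and 2, and without a filter the last was 13, and the cause of these shifts was not tested. The replicate block gave 8, 15, 19, 15 and 10, and apart from the calls named with it in the report it added AT1G36675 and AT1G43590 to *brat1nrpe1* against *nrpe1* and AT5G36960 to *brat1nrpe1* against the wild type, and it changed no other call. Leaving out a library or a replicate number gave 2 to 7, 9 to 18, 7 to 19, 9 to 14 and 1 to 12, with the lowest counts without replicate 2 or 3 of all genotypes. For the last, leaving out any 1 library gave 4 or 5 except without replicate 2 of the wild type (8), replicate 1 of *brat1* (7) or replicate 1 of *brat1nrpe1* (9). Members on ranged over 354 to 414 in *brat1*, 360 to 437 in *nrpe1*, 356 to 421 in *brat1nrpe1* and 353 to 422 in the wild type with the other limits. FPKM carries no read counts, so no counting error was computed, and members with a mean below 0.1 FPKM were not tested.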
